A study of Mus musculus with 18 samples.

Results

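Imprinted genes are expressed wholly or mainly from the copy inherited from 1 parent. The 52 mouse genes described here were taken by name from the known imprinted clusters and from genes imprinted outside them, and all 52 matched a gene among the 21887 protein-coding genes of a RefSeq table for GRCm38.p6, the assembly that mm10 stands for. A listed peak was linked to a gene when it overlapped the gene's span or the 1 kb on either side, and open chromatin linked to these genes was read from ATAC-seq, an assay in which a transposase cuts accessible DNA. The cells were lung epithelial cells of adult c57/bl6 mice, 6 to 12 weeks old, that had received a G9a inhibitor (G9ai) or vehicle. CD31/45-negative, Epcam+ and Sca-1+ cells were sorted by their surface Cd24 into 3 populations, named here CD24neg, CD24low and CD24high, with 10000 cells per library and 3 mice per arm. Peak lists were used from 2 G9ai libraries and 1 vehicle library of CD24neg, from 2 G9ai and 2 vehicle libraries of CD24low, and from 2 G9ai libraries and 1 vehicle library of CD24high. The other 8 of the 18 libraries were not analysed here. No mutant or transgenic allele is named for any group, and the sources used here do not name the compound, its dose, its route or the length of treatment.

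In an imprinted cluster, DNA methylation laid down in the egg or the sperm marks a control region on 1 parental copy, and that mark sets which copy of each gene in the cluster is active. Several clusters make a long noncoding RNA from the paternal copy, such as Airn at Igf2r and Kcnq1ot1 at Kcnq1, which silences neighbouring genes on that copy. G9a, encoded by Ehmt2, is an enzyme that methylates lysine 9 of histone H3, a mark of silenced chromatin. In mouse placenta Airn is known to bring G9a to Slc22a3, and Kcnq1ot1 is known to associate with G9a there.

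Peaks of a population that shared 1 bp or more were merged into regions. G9ai-only regions had a peak in every listed G9ai library of the population and in no vehicle library, and vehicle-only regions the reverse. Across the 3 populations 112 such regions were linked to the imprinted genes, of 24856 linked to any gene. Of the 112, 39 were G9ai-only and 73 (65.2%) were vehicle-only, where 63.5% of all gene-linked regions were vehicle-only. Their median width was 155 bp. The gene span held 107 of them whole, 2 crossed an end of the span and 3 lay in the flanking 1 kb. Exons, introns and UTRs were not separated here, since the gene table gives spans alone.

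The lists show part of the open chromatin. Each held 2552 to 12985 peaks, which was 3.03% to 13.2% of the highest peak number in it, so most called peaks were not listed. Within a population the replicate lists of an arm covered nearly the same places, and those of opposite arms nearly none in common, so a gene with no listed region may be open in both arms. For the same reason the spread between replicate lists understates the spread between mice. The 4 library prefixes in the peak names never crossed the arms, so prefix and arm cannot be told apart. No read counts come with the lists, so depth is unknown. The assay reads both parental copies together, and in sorted bulk cells a change in the mix of cells cannot be told apart from a change within each cell. Of the sort markers, Epcam, Ly6a (Sca-1) and Cd24a held no listed region in any population. Pecam1 (CD31), gated out in the sort, held 4 G9ai-only regions in CD24low and 1 vehicle-only region in each of CD24neg and CD24high, and Ptprc (CD45) held 1 vehicle-only region in CD24neg. The part of cells with these markers in the results below was not tested.

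Regions at a promoter are shown first, because they lie at a start of transcription. A RefSeq table of the same assembly (GRCm38.p6) gave windows of 300 bases, 250 before and 50 after a start, for 41 of the 52 genes, with 67 windows in all. A G9ai-only region overlapped such a window in 3 of the 41 genes, or 7.32%, against 5.35% of all genes in that table. These were Gnas, Grb10 and Igf2r. A vehicle-only region did so in 5 of the 41 genes, or 12.2%, against 6.5% of all genes. These were Gnas, Igf2r, Ppp1r9a, Rasgrf1 and Slc22a18. All 17492 genes of that table had 21263 windows. The 41 imprinted genes thus had more windows per gene, with more room for an overlap, and the shares do not allow for this. The windows with G9ai-only regions and, for contrast, those of Gnas and Slc22a18 with vehicle-only regions are printed 5′ to 3′ on the gene's strand, with the bases inside an arm-only region in capitals.
Gnas, chr2:174284070-174284369 (plus strand), G9ai-only in CD24high: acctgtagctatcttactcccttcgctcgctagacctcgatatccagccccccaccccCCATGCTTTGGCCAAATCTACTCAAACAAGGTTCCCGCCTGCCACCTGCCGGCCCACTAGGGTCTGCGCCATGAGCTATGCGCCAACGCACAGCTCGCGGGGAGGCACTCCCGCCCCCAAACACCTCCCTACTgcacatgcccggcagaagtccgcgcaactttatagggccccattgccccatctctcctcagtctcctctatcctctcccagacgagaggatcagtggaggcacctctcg
Gnas, chr2:174329756-174330055 (plus strand), G9ai-only over all of it in CD24neg, and over 233 and 34 of its bases as 2 regions in CD24high: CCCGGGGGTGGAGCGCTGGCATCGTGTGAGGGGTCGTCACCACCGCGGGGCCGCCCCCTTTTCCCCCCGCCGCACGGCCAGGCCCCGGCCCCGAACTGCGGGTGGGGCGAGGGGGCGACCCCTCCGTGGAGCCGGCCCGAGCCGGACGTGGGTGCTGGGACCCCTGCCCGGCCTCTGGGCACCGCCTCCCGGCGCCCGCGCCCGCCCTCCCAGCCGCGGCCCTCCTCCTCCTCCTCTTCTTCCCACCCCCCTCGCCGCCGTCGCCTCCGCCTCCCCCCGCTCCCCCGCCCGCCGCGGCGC
Gnas, chr2:174327518-174327817 (plus strand), vehicle-only in CD24high: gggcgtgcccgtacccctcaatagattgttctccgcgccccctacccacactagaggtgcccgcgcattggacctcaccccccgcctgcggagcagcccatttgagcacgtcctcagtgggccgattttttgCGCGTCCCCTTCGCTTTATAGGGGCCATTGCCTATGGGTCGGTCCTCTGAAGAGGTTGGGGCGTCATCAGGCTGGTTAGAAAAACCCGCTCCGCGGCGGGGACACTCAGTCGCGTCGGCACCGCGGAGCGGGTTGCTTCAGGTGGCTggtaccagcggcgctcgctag
Grb10, chr11:12037371-12037670 (minus strand), G9ai-only in CD24low: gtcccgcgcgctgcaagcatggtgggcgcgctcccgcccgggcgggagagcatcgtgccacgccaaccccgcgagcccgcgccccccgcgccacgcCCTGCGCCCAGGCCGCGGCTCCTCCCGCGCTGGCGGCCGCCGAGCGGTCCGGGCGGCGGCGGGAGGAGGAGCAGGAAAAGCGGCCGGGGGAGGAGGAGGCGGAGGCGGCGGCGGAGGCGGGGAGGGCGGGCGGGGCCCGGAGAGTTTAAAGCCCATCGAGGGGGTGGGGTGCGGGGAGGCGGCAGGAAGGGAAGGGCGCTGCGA
Igf2r, chr17:12769657-12769956 (minus strand), G9ai-only in CD24low for the capitals nearer the 5′ end and vehicle-only in CD24neg and CD24high for those at the 3′ end: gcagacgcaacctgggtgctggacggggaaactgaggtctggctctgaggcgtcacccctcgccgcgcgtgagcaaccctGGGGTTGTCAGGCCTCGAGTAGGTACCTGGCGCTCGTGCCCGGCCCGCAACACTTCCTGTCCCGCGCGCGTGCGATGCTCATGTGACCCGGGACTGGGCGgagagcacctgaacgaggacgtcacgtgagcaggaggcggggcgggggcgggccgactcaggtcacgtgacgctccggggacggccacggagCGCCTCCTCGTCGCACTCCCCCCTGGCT
Slc22a18, chr7:143473539-143473838 (plus strand), vehicle-only in CD24high: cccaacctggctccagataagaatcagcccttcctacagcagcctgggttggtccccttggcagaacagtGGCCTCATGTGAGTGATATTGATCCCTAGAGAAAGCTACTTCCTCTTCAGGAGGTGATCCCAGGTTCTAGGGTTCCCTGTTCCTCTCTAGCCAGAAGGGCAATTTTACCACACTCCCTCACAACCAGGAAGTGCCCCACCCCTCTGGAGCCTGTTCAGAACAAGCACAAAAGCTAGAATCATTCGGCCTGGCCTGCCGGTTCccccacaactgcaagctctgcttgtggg

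These windows ranged widely in CpG content. The Grb10 window held 45 CpG dinucleotides, the 3 Gnas windows 16, 40 and 28 in the order printed, the Igf2r window 34 and the Slc22a18 window 2. The windows with vehicle-only regions that are not printed held 26 in Rasgrf1, 10 in Ppp1r9a and 27 in Gnas. The median was 16 over the 67 windows of imprinted genes and 13 over all 21263 windows. A pair of short motifs was searched on both strands, counting overlapping matches. TGCCGC, the core that the imprint-keeping zinc finger protein ZFP57 recognises when methylated, occurred in 23.9% of the windows of imprinted genes and in 14.1% of all windows. GGGCGG, the GC box bound by Sp1-family factors, occurred in 50.7% and 46.2%. Of the 6 windows printed, Grb10 alone held TGCCGC (1 match). A match in these letters is a description and not a bound site.

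An arm-only region in at least 1 population was found in 30 of the 52 imprinted genes, or 57.7%. The share was 43.7% of all protein-coding genes and 55.2% of genes of similar length, taken as the 500 genes nearest in length to each imprinted gene. A longer gene offers more room for a region. The median length was 42582 bp for the imprinted genes and 17169 bp for all genes, and within the imprinted genes 70551 bp for those with a region and 27911.5 bp for those without. Set against genes of their own length, the imprinted genes thus held a listed region about as often. The 5 genes with the most regions, Trappc9 with 14, Igf2r and Atp10a with 12 each, Kcnq1 with 11 and Cobl with 8, held 57 of the 112.

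In CD24neg, the population without surface Cd24, 11 imprinted genes (21.2%) had a G9ai-only region and 15 (28.8%) a vehicle-only region. Of all genes 10.6% had a G9ai-only region and 18.9% a vehicle-only region, and of genes of similar length 15.8% and 26.6%. Igf2r, Kcnq1, Atp10a, Cobl and Trappc9 had regions on both sides. Sgce, Asb4, Copg2, Ddc, Gnas and Ampd3 had G9ai-only regions alone, and Slc22a3, Cdkn1c, Slc22a18, Osbpl5, Cd81, Ppp1r9a, Pon3, Usp29, Blcap and Rasgrf1 vehicle-only regions alone. The 14 G9ai-only regions made up 35.0% of the arm-only regions of imprinted genes, close to the 31.6% over all gene-linked regions.

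CD24low, the population with 2 listed libraries in both arms, was the one where more imprinted genes had a G9ai-only region, 13 (25.0%), than a vehicle-only region, 7 (13.5%). The shares of all genes were 15.9% and 7.44%, and those of genes of similar length 22.5% and 10.4%. Pon3, Peg3, Atp10a, Grb10, Cobl, Plagl1, Trappc9, Commd1 and Rasgrf1 had G9ai-only regions alone. Phlda2, Snrpn and Gnas had vehicle-only regions alone, and Igf2r, Kcnq1, Ppp1r9a and Asb4 had both. Of the arm-only regions of imprinted genes 68.0% were G9ai-only (17 regions against 8), and of all gene-linked regions 73.1%.

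In CD24high, 4 imprinted genes (7.69%) had a G9ai-only region and 20 (38.5%) a vehicle-only region. Of all genes these shares were 8.01% and 25.0%, and of genes of similar length 11.8% and 34.4%. Igf2r, Cobl, Gnas and Trappc9 had both kinds, and no imprinted gene had G9ai-only regions alone. The others with vehicle-only regions were Kcnq1, Phlda2, Slc22a18, Ascl2, Igf2, Ppp1r9a, Copg2, Usp29, Snrpn, Atp10a, Grb10, Plagl1, Blcap, Slc38a4, Rasgrf1 and Ampd3. The G9ai-only share of regions was 17.0% for imprinted genes (8 regions against 39) and 18.3% for all gene-linked regions.

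**Figure D1:**
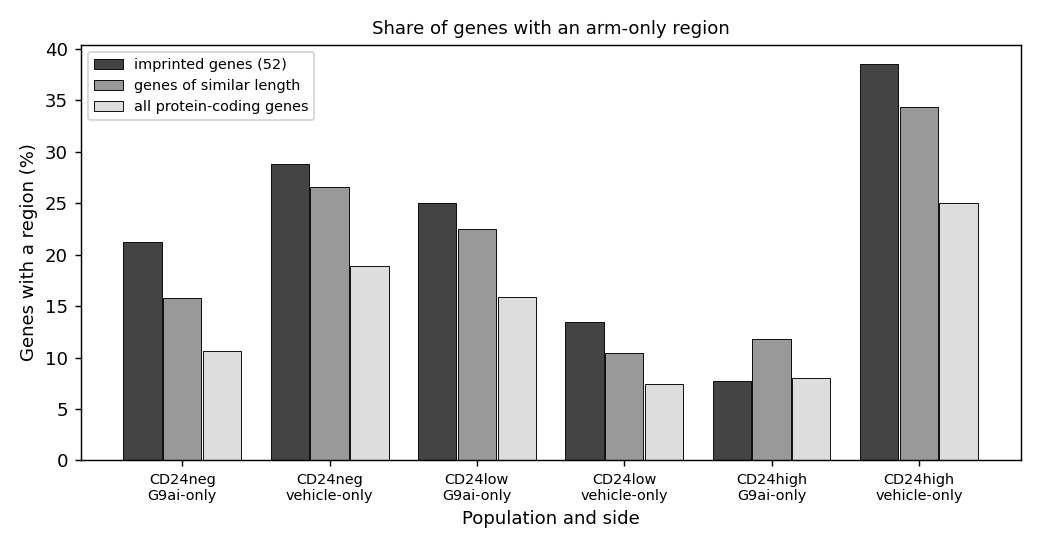
Share of genes (%) with a G9ai-only or vehicle-only region in each population, for the 52 imprinted genes, for genes of similar length and for all protein-coding genes. The imprinted genes lie above both others in 5 of the 6 pairs of population and side, and in CD24high G9ai-only they lie below both, at 7.69% against 11.8% and 8.01%.

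The arm with more imprinted genes was in each population the arm with the longer lists. When each list was reduced to its 2552 peaks of highest score, the length of the shortest list, imprinted genes with a G9ai-only and a vehicle-only region numbered 7 and 7 in CD24neg, 3 and 7 in CD24low, and 3 and 6 in CD24high. Of all genes 5.12% and 6.81% did so in CD24neg, 3.57% and 7.44% in CD24low, and 6.93% and 7.08% in CD24high. The order of the arms in CD24low turned round under that setting for all genes as for the imprinted ones. The setting leaves the vehicle lists of CD24low almost whole, while a G9ai-only region there must keep its peak in both shortened G9ai lists.

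The peaks linked to imprinted genes were also taken as a share of each list, which scales them to its length. In CD24low that share was 0.244% and 0.245% in the 2 G9ai libraries and 0.313% in each of the 2 vehicle libraries, with no overlap between the arms. The means were 0.244% ± 0.000422 with G9ai and 0.313% ± 0.00052 with vehicle (SD, n = 2 each), a difference of -0.0689 percentage points. The exact permutation test, two-sided, gave p = 0.333, the smallest value that 2 libraries against 2 allow. The SD is between lists that cover nearly the same places, and the 95% Wilson interval of a single CD24low list, 0.154% to 0.385% for G9ai replicate 2 and 0.159% to 0.616% for vehicle replicate 2, is far wider.

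In CD24neg the share was 0.383% and 0.337% in the G9ai libraries and 0.293% in the vehicle library (95% Wilson interval 0.2% to 0.429%). In CD24high it was 0.286% and 0.284% in the G9ai libraries and 0.3% in the vehicle library (0.22% to 0.41%). The sign of the difference thus varied between populations. In CD24neg both G9ai libraries lay above the vehicle library, and in CD24low and CD24high both lay below. In CD24neg and CD24high the 95% Wilson interval of each G9ai list held the vehicle value. It was 0.236% to 0.622% for G9ai replicate 2 of CD24neg and 0.145% to 0.563% for G9ai replicate 2 of CD24high. Over the 3 populations the mean difference was -0.00566 percentage points (exact permutation test within populations, two-sided, p = 0.685, smallest possible 0.0185). The test treats the populations as separate, although the libraries of 1 arm and replicate carried the same prefix in every population, so they may share mice or a batch. That difference changed sign, to 0.00201, without CD24neg G9ai replicate 3, and to 0.0167 when the window was widened to 10 kb on either side.

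**Figure D2:**
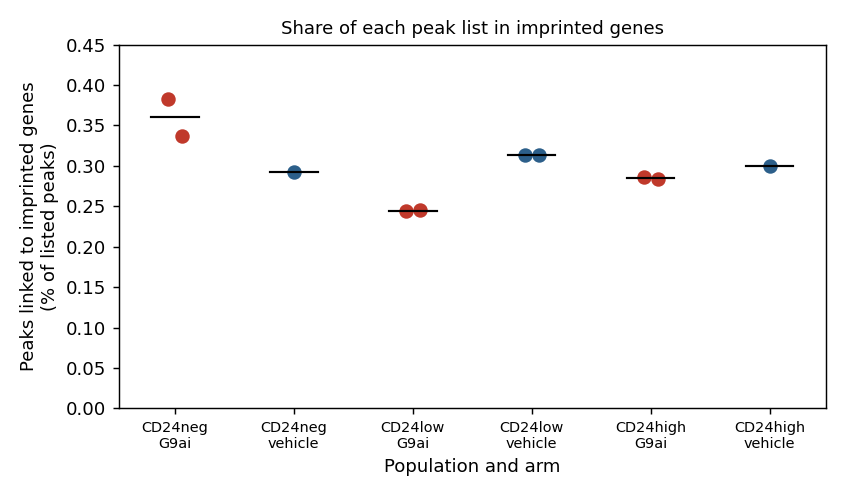
Share of each library's listed peaks (%) that are linked to the 52 imprinted genes, by population and arm, with 1 point per library and a bar at the group mean. G9ai libraries lie above the vehicle library in CD24neg (0.383% and 0.337% against 0.293%) and below the vehicle libraries in CD24low (0.244% and 0.245% against 0.313% in each). Replicate lists of an arm cover nearly the same places, so the closeness of their points understates the spread between mice.

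Some imprinted genes had regions of the same arm in several populations. G9ai-only regions occurred in at least 2 populations in 7 genes (13.5%), against 7.6% of all genes and 12.7% of genes of similar length. Vehicle-only regions did so in 13 genes (25.0%), against 13.3% and 20.5%. Igf2r, Cobl and Trappc9 had a G9ai-only region in all 3 populations, and Igf2r, Kcnq1 and Ppp1r9a a vehicle-only region in all 3.

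**Figure D3:**
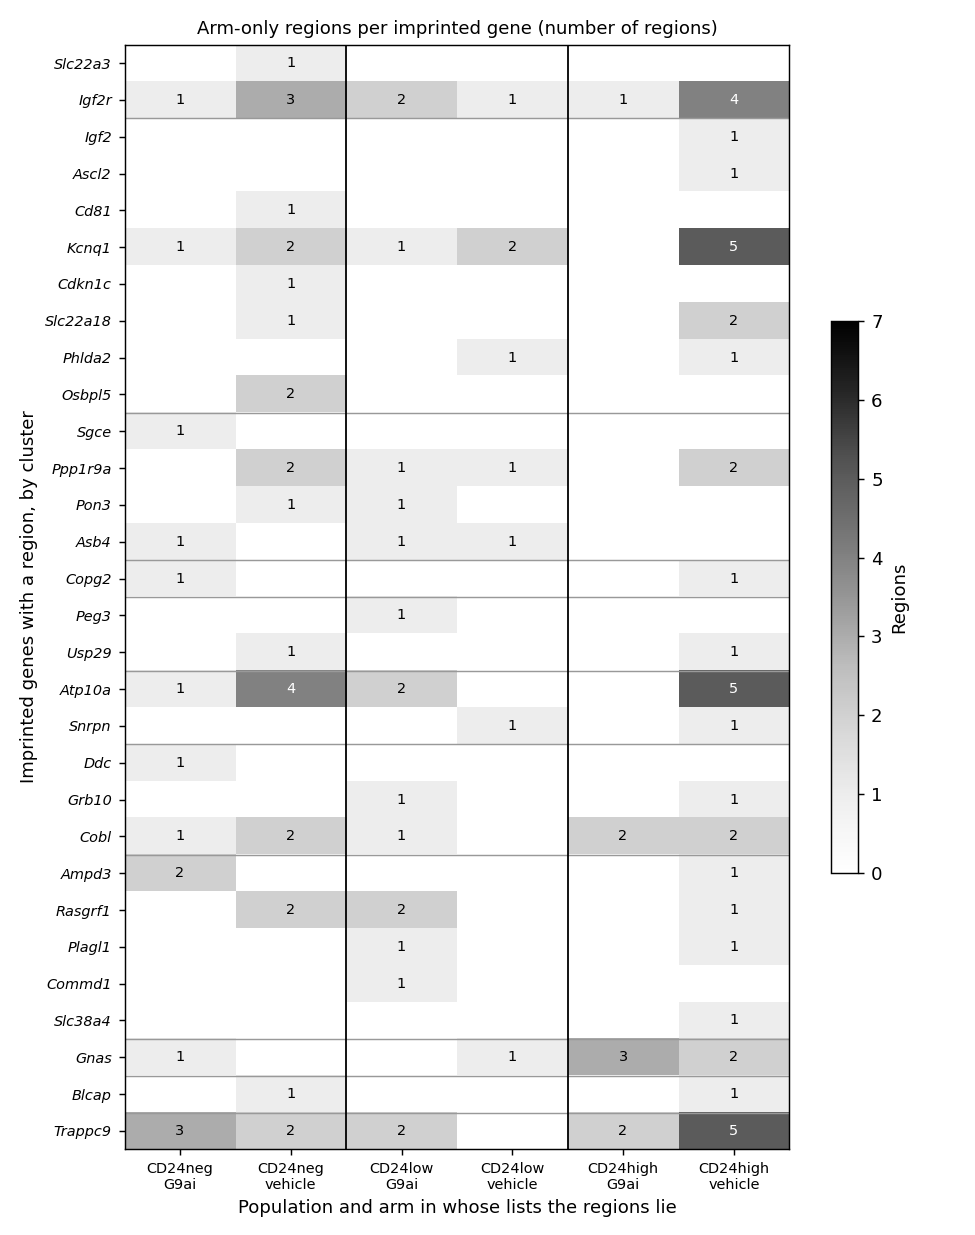
Number of arm-only regions in each of the 30 imprinted genes that held any, by population and arm, grouped by imprinted cluster (grey lines). Igf2r is the gene with a region in all 6 columns, and Kcnq1, Atp10a and Trappc9 hold 5 vehicle-only regions each in CD24high.

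Igf2r, which encodes the receptor that takes up and degrades insulin-like growth factor 2, was the imprinted gene with regions in all 6 combinations of population and arm. It is expressed from the maternal copy and spans chr17:12682406-12769706, on the minus strand. Its 12 regions, 4 G9ai-only and 8 vehicle-only, were matched or exceeded by 1.4% of genes of similar length, whose median was 2. Igf2r was singled out for its regions among all the imprinted genes, and with many genes some low shares arise by chance. The next lowest shares were those of Gnas (4.2%), Phlda2 (5.4%) and Atp10a (7.4%), and none was tested. These totals count a place again in each population that lists it, as at the Igf2r places starting at 12750676, 12751318 and 12769597. Below, the rank of a peak's score is a percentile within its own list, where a high percentile is a high score.

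At the Igf2r start, regions of both arms lay side by side. The G9ai-only region of CD24low at chr17:12769777-12769876 lay 71 bp upstream of the start and ranked at percentile 71.5 in replicate 2 and 18.9 in replicate 3. The G9ai-only region of CD24neg at chr17:12769348-12769455 lay 251 bp downstream of it, at percentiles 33.3 and 13.5. Between them, 22 to 33 bp from the start, lay a vehicle-only region shared by CD24neg (percentile 31.6) and CD24high (percentile 64). That same place, chr17:12769607-12769668, had a peak in CD24low G9ai replicate 2 (percentile 71.5) but none in replicate 3, so it counted for neither arm there. Accessibility at this start was therefore listed under G9ai in CD24low and CD24neg and under vehicle in CD24neg and CD24high, at neighbouring positions of the promoter printed above.

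Further into Igf2r, the body of the gene overlaps Airn, whose RNA starts at position 12741311 and runs the other way. Noncoding genes were looked up after the regions had been seen. In CD24low, a G9ai-only region at chr17:12750122-12750302 ranked at percentiles 76.5 and 81 in the G9ai replicates, 8811 bp from the Airn start. A vehicle-only region close by, at chr17:12750699-12750804, ranked at 49.5 and 39.6 in the vehicle replicates of CD24low. It overlapped a vehicle-only region of CD24high (percentile 70.2). The place at chr17:12751318-12751508 was vehicle-only in CD24neg (percentile 73.2) and CD24high (percentile 82.5). Regions of CD24high at chr17:12756167-12756340 (G9ai-only, percentiles 18.9 and 4.06) and at chr17:12724469-12724674 (vehicle-only, percentile 93.5), and 1 of CD24neg at chr17:12738059-12738185 (vehicle-only, percentile 92.7), completed the set. In all, 10 of the 12 regions lay within the span of Airn.

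The 2 neighbours of Igf2r encode organic cation transporters that Airn silences on the paternal copy in placenta. Slc22a3 held 1 region, vehicle-only in CD24neg at chr17:12453244-12453428, with percentile 91.8. Slc22a2 held none.

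The cluster on distal chromosome 7 around Kcnq1 and Igf2 held 2 G9ai-only and 20 vehicle-only regions. Of all gene-linked regions 63.5% were vehicle-only, and the vehicle lists were the longer ones in CD24neg and CD24high. Of its 10 genes 8 held a region (80.0%), where 42.3% of genes of similar length did. Kcnq1, a voltage-gated potassium channel, held both G9ai-only regions and 9 of the vehicle-only regions. Its G9ai-only regions lay at chr7:143390354-143390569 in CD24neg (percentiles 72.7 and 34) and at chr7:143119624-143119881 in CD24low (percentiles 64.4 and 37.1). In CD24low its vehicle-only regions were at chr7:143294810-143294987 (percentiles 27.2 and 39.6) and chr7:143313648-143313874 (percentiles 18.4 and 94.8).

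The region at 143294810 recurred as vehicle-only in CD24high (percentile 15.6). It lay 1560 bp inside the start of Kcnq1ot1, the paternally expressed noncoding RNA that starts within Kcnq1 and silences the cluster, and its CD24high counterpart 1614 bp inside. Another vehicle-only region of CD24high at chr7:143289597-143289749 (percentile 56.2) also lay within Kcnq1ot1, 6798 bp from its start. These were the 3 regions within Kcnq1ot1, all vehicle-only, and those nearer its start are 1 place counted in 2 populations. Of all gene-linked regions 81.7% were vehicle-only in CD24high and 26.9% in CD24low. The remaining Kcnq1 regions were vehicle-only in CD24neg at 143367722 (percentile 58.3) and 143368316 (percentile 83.1), and in CD24high at 143333091 (29.1), 143360842 (59.4) and 143416500 (80.1).

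Phlda2, which restrains placental growth, and Slc22a18, a transporter, are neighbours in this cluster and are expressed from the maternal copy. Phlda2 held a vehicle-only region 244 bp from its start in CD24low, at chr7:143502176-143502280 with percentiles 77.4 and 16.9, and at the same place in CD24high with percentile 23.4. It is 1601 bp long, and 5.4% of genes of similar length held as many regions. Both Phlda2 regions are the same place, counted in each population. Slc22a18 held a vehicle-only region across its start in CD24high, at chr7:143473609-143473810 with percentile 85.8, in the CpG-poor window printed above. A second place of Slc22a18, at chr7:143480669-143480783, was vehicle-only in CD24neg (percentile 12.2) and CD24high (percentile 2.73), among the lower scores of both lists.

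The other genes of the cluster held vehicle-only regions in a single population. Osbpl5, a lipid-transfer protein, had 2 in CD24neg, at chr7:143712070-143712504 (percentile 86.7) and chr7:143738778-143738900 (percentile 52.2). Cdkn1c, a cyclin-dependent kinase inhibitor that limits growth, and Cd81, a tetraspanin membrane protein, each had 1 in CD24neg, at percentiles 35.4 and 1.17. Ascl2, a transcription factor of the placenta, and Igf2, the growth factor itself, each had 1 in CD24high, at percentiles 12 and 11.1. Igf2 is the paternally expressed gene of this group, with its region at chr7:142659461-142659563. Tssc4 and Nap1l4 held no region.

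**Figure D4:**
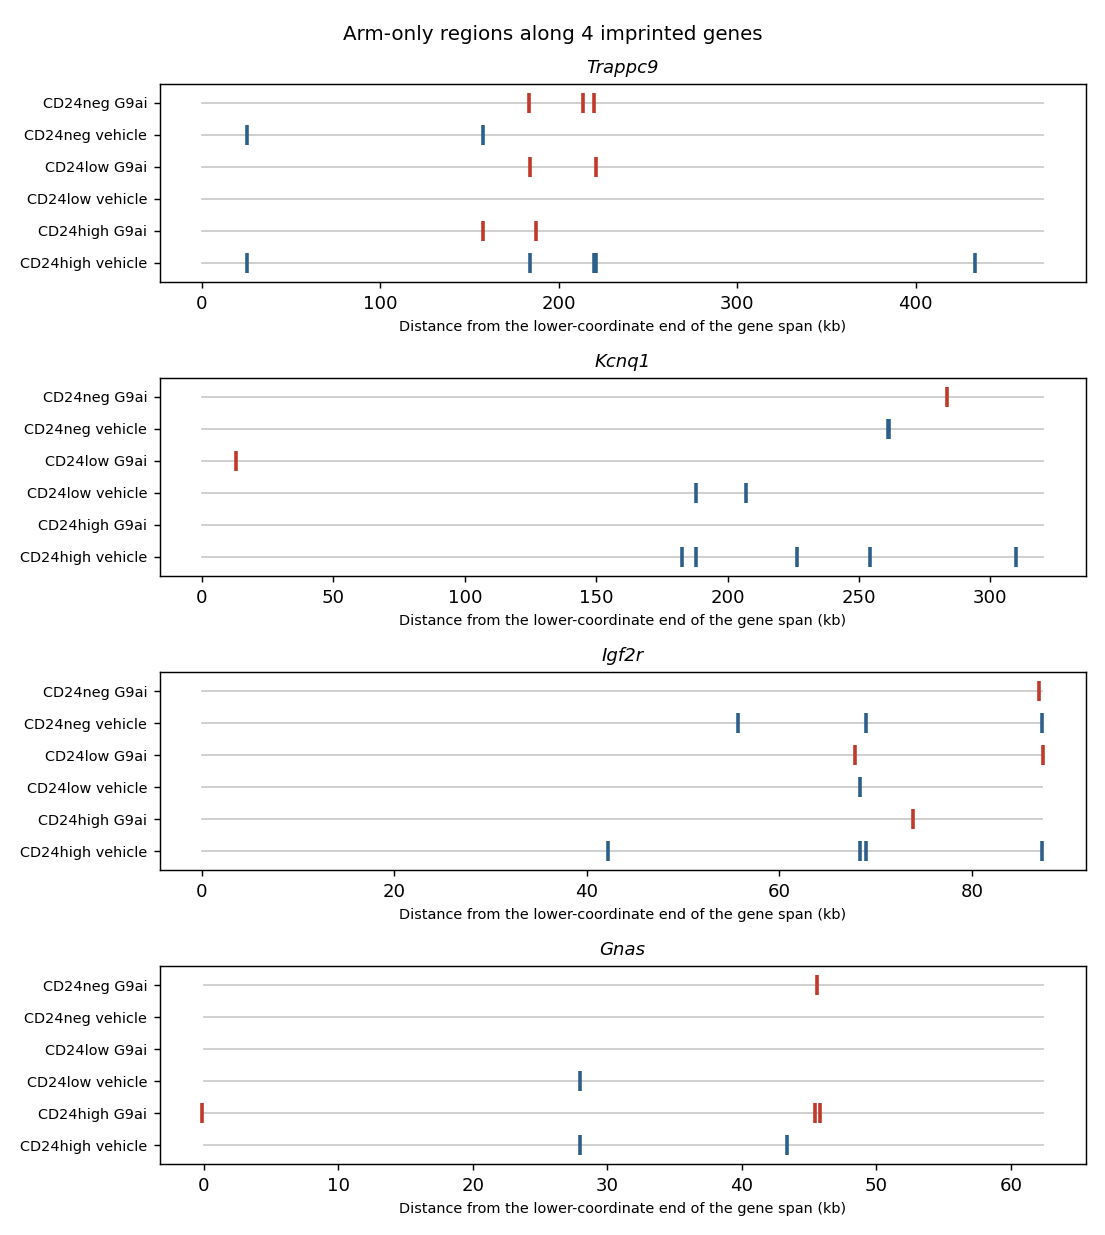
Midpoints of the arm-only regions along Trappc9, Kcnq1, Igf2r and Gnas, in kb from the lower-coordinate end of each gene span, with a row for each population and arm (G9ai red, vehicle blue). G9ai-only and vehicle-only regions number 7 and 7 in Trappc9, 2 and 9 in Kcnq1, 4 and 8 in Igf2r, and 4 and 3 in Gnas, where 63.5% of all gene-linked regions are vehicle-only.

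Gnas encodes the stimulatory G protein alpha subunit and, from alternative first exons, several other transcripts that differ in the parental copy they come from. It spans chr2:174284320-174346744 and held 4 G9ai-only and 3 vehicle-only regions, a total that 4.2% of genes of similar length reached. Places listed in CD24high and in another population were counted in each. The place at chr2:174329609-174330230 was G9ai-only in CD24neg, as a region of 622 bp at percentiles 66.8 and 76.4. In CD24high it was G9ai-only as 2 regions, of 380 bp at percentiles 26.4 and 41.2 and of 187 bp at percentiles 63 and 17.2. It was the single place in the imprinted genes that was listed in more than 1 population and G9ai-only in each of them. It covers the whole of the second Gnas window printed. The third G9ai-only region of CD24high lay 60 bp upstream of the gene's outermost start, at chr2:174284128-174284260 with percentiles 45 and 53.3, within the antisense RNA gene Gnasas1.

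On the vehicle side, Gnas held a place at chr2:174312256-174312357 that was listed in CD24low (percentiles 71.3 and 44.8) and CD24high (percentile 35.2), away from the starts in the promoter table. A vehicle-only region of CD24high at chr2:174327650-174327796 (percentile 18.6) lay inside the third Gnas window printed. Within CD24high, then, starts of this gene were listed under both arms, at different positions.

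Trappc9, a subunit of a vesicle-tethering complex, is the longest imprinted gene examined (471619 bp, chr15:72589620-73061238) and held the most regions, 7 of each arm. Genes of similar length held as many in 13% of cases. In CD24neg its G9ai-only regions ranked at percentiles 89.8 and 62.8 (chr15:72772692-72773329), 59.9 and 34 (chr15:72803232-72803387) and 2.59 and 18.6 (chr15:72809113-72809235). In CD24low they ranked at 5.23 and 0.272 (chr15:72773160-72773285) and at 74.8 and 0.91 (chr15:72810303-72810437). In CD24high they ranked at 16.3 and 92.7 (chr15:72746891-72747003) and at 92.8 and 37 (chr15:72776969-72777173). Several of these pairs of ranks differ widely between the replicates.

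The vehicle-only regions of Trappc9 were in CD24neg and CD24high. Those of CD24neg were at 72614758 (percentile 12.2) and 72746896 (percentile 65.8). Those of CD24high were at 72614747 (percentile 68.4), 72773143 (66.7), 72809094 (69.7), 72810343 (2.07) and 73023000 (66.1). Peg13, a paternally expressed noncoding RNA, lies in Trappc9 at chr15:72805602-72810324. The region at 72809113 lay within Peg13 and was G9ai-only in CD24neg, while the same place was vehicle-only in CD24high. At 72810303, across the higher-coordinate end of Peg13, the region was G9ai-only in CD24low, and the vehicle-only region of CD24high overlapped it, 19 bp beyond that end. Kcnk9, a potassium channel of the same cluster, held no region.

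Some places changed arm between populations. The 112 regions of imprinted genes formed 93 places, of which 17 (18.3%) were listed in more than 1 population, against 14.6% of places linked to any gene. Of the 17, 1 was G9ai-only in each population that listed it, 9 were vehicle-only in each, and 7 (41.2%) were G9ai-only in some and vehicle-only in another. Over all gene-linked places listed in several populations the last share was 50%. Of the 7, 4 were in Trappc9, 2 in Atp10a and 1 in Ampd3.

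Atp10a, a phospholipid-transporting ATPase at the edge of the Snrpn and Ube3a cluster whose imprinting varies between tissues, held 3 G9ai-only and 9 vehicle-only regions. The place at chr7:58693279-58693644 was G9ai-only in CD24low (percentiles 62.8 and 90.6) and vehicle-only in CD24high (percentile 92.3), so it ranked high in the lists of both arms. The place at chr7:58687027-58687283 was G9ai-only in CD24low (percentiles 19.2 and 0.272) and vehicle-only in CD24neg (percentile 61.4). Its remaining G9ai-only region, in CD24neg at chr7:58746275-58746527, ranked at percentiles 93.7 and 48.4. The highest of its other vehicle-only regions were at 58677157 in CD24neg (percentile 85.8) and at 58754624 in CD24high (percentile 91.8).

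Snrpn, a splicing-factor gene whose start carries the imprinting centre of the cluster, held vehicle-only regions alone. The region of CD24low at chr7:60004196-60004340 ranked at percentiles 31.3 and 44.8 in the vehicle replicates and lay 859 bp downstream of a listed start. That of CD24high at chr7:60244337-60244434 ranked at 27.5. Both lay within the long noncoding RNA Snhg14, and that of CD24low also in the window of Snurf. The ubiquitin ligase gene Ube3a and the paternally expressed genes Ndn, Magel2 and Mkrn3 held no region.

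In the cluster of Peg10 and Sgce on chromosome 6, 4 of 7 genes (57.1%) held a region, and 60.6% of genes of similar length did. Asb4, a subunit of a ubiquitin ligase, had the region with the highest pair of ranks in CD24low: G9ai-only at chr6:5411091-5411229, percentiles 93.7 and 95.7. It also had a vehicle-only region in CD24low at chr6:5401485-5401627, with percentiles 91.3 and 3.74, the widest gap between replicates in the imprinted genes. In CD24neg its G9ai-only region lay 570 bp upstream of its start, at percentiles 75.9 and 60.1. Asb4 thus held a well-ranked G9ai-only region in CD24neg and in CD24low, at different places.

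Ppp1r9a, which encodes the actin-binding protein neurabin, held 1 G9ai-only and 5 vehicle-only regions. The G9ai-only region was in CD24low at chr6:4972806-4973109, with percentiles 36.4 and 32.1. Near the start, a vehicle-only region of CD24low at chr6:4903704-4903839 ranked at 58.3 and 75.7, and a vehicle-only region of CD24high at chr6:4902907-4903044 overlapped a promoter window at percentile 59.4. Both were also in the window of Gmfg-ps, another gene of the table. The other vehicle-only regions ranked at 49.8 and 37.1 in CD24neg and at 8.2 in CD24high. Pon3, a lactonase, was G9ai-only in CD24low (chr6:5237362-5237848, percentiles 72.9 and 39.7) and vehicle-only at another place in CD24neg (percentile 39.6). Sgce, the epsilon-sarcoglycan gene, was G9ai-only in CD24neg, with percentile 51.4 in both replicates. Peg10, a retrotransposon-derived gene needed for the placenta, the calcitonin receptor gene Calcr and Pon2 held none.

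In the Grb10 cluster on chromosome 11 each of the 3 genes held a region, as did 77.1% of genes of similar length. Grb10 encodes an adaptor that dampens insulin signalling and is expressed from the maternal copy in most tissues and the paternal copy in neurons. Its G9ai-only region of CD24low, at chr11:12037337-12037574, crossed the gene's start in the CpG-rich window printed above, but at low ranks, percentiles 6.91 and 18.9. A vehicle-only region of CD24high lay inside the gene at percentile 17.9. Cobl, an actin nucleator, held 4 regions of each arm. In CD24neg its G9ai-only region at chr11:12421264-12421599 ranked at percentiles 83.7 and 93.1, and its vehicle-only regions at 71.4 and 90.2. In CD24low its G9ai-only region ranked at 2.95 and 41.5. In CD24high its G9ai-only regions ranked at 93.3 and 17.2 and at 3.27 and 17.2, against 96.1 and 88.9 for its vehicle-only regions. Ddc, the enzyme that makes dopamine and serotonin, was G9ai-only in CD24neg at percentiles 40.8 and 28.7.

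The smaller clusters held few regions. Copg2, a coat protein of transport vesicles next to Mest, was G9ai-only in CD24neg, 209 bp from its start, at percentiles 59.9 and 71.9 (chr6:30896335-30896585), and vehicle-only in CD24high at percentile 15.6. The CD24neg region was also in the window of Tsga13, which is not among the 52. Mest and Klf14 held none. Peg3, a zinc finger gene expressed from the paternal copy, was G9ai-only in CD24low at chr7:6728532-6728865, 1554 bp from its start, at percentiles 17.3 and 18.9. Its neighbour Usp29 was vehicle-only at chr7:6940811-6940897 in CD24neg (percentile 12.2) and CD24high (percentile 25.9), and Zim1 held none. Blcap, a small membrane protein gene that contains Nnat, was vehicle-only in CD24neg (chr2:157556441-157556715, percentile 69.1) and CD24high (chr2:157563696-157564003, percentile 97.1). The CD24high region had the highest rank of any in the imprinted genes, and it lay 1171 bp outside Nnat, which held none in its window.

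Among genes imprinted outside the large clusters, 5 of 9 (55.6%) held a region, and 67.4% of genes of similar length did. Plagl1, a zinc finger factor that controls a network of growth genes, was G9ai-only in CD24low at chr10:13107009-13107486 (percentiles 70.6 and 93.3) and vehicle-only at another place in CD24high (percentile 71.2). Rasgrf1, an exchange factor for Ras, was G9ai-only in CD24low at chr9:90007100-90007488 (percentiles 61.1 and 74.4) and at chr9:90008187-90008501 (percentiles 61.1 and 7.21). It was vehicle-only in CD24neg at percentiles 85.1 and 23, and in CD24high at its promoter (chr9:89909771-89909881, percentile 27.5). Commd1, which takes part in copper handling, was G9ai-only in CD24low at percentiles 33.8 and 64.4. Ampd3, an AMP deaminase, was G9ai-only in CD24neg at chr7:110804225-110804538 (percentiles 5.08 and 75.1), where CD24high was vehicle-only (percentile 93.6), and near its start at percentiles 0.204 and 20.3. The place at 110804225 is also in the window of Rnf141, which is not among the 52. The amino acid transporter gene Slc38a4 was vehicle-only in CD24high at percentile 5.13. Impact, Sfmbt2, Zdbf2 and Dcn held none.

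No region was linked to Dlk1, Rtl1 or Dio3 on chromosome 12, where 36.5% of genes of similar length held one. With them, 22 imprinted genes held no arm-only region in any population. The longest of these were Sfmbt2 (224814 bp), Zdbf2 (114219 bp), Ube3a (82088 bp) and Calcr (79036 bp). Genes of similar length held a region in 77.4%, 80.8%, 74.2% and 72.4% of cases, in that order. Since the lists leave out what both arms share, these 4 genes may be open or closed in these cells.

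Score ranks of the same region differed widely between replicates. In the 47 regions of imprinted genes with 2 libraries the median gap was 19.8 percentile points, and in all 10761 such gene-linked regions it was 22.8. The gap was over 50 points in 10 of the 47 (21.3%) and in 16.7% of all such regions. At or above percentile 75 in both replicates were 3 regions, those of Asb4 and Igf2r in CD24low and of Cobl in CD24neg, all G9ai-only. Of the 47, 39 were G9ai-only and 8 vehicle-only, since CD24low alone had 2 vehicle lists.

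**Figure D5:**
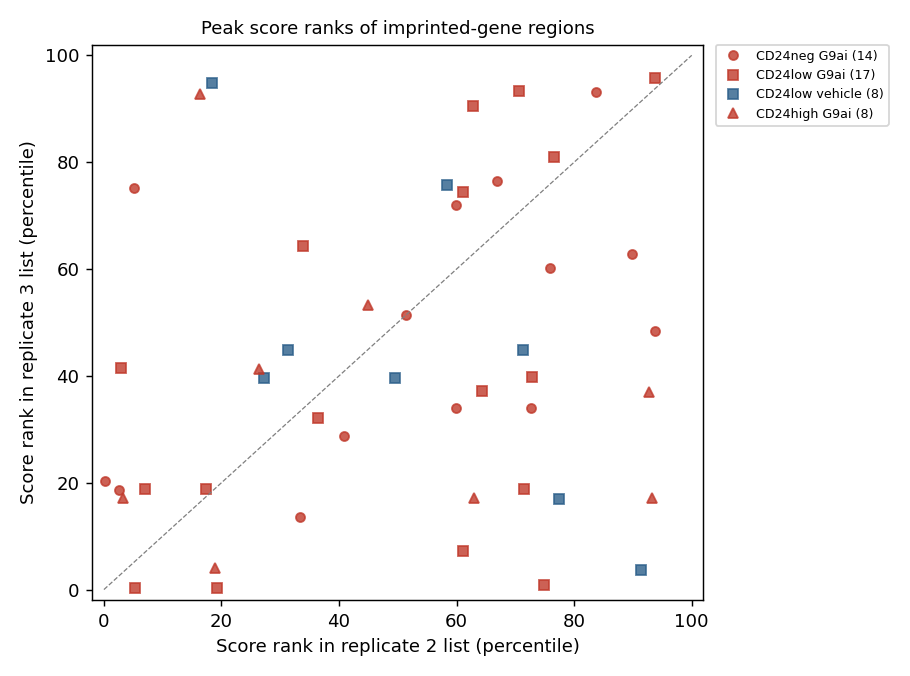
Score rank (percentile within each list) of the 47 regions with 2 libraries, replicate 2 across and replicate 3 up, with a dashed line where both are equal. Points scatter widely around the line, with a median gap of 19.8 points and a largest gap of 87.6, for the vehicle-only Asb4 region of CD24low.

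Grouped by the parental copy from which they are known to be expressed, 17 of 27 maternally expressed genes (63%) held a region, where 57% of genes of similar length did. Of 21 paternally expressed genes 9 did so (42.9%, against 51.4% of genes of similar length). Atp10a, Grb10, Gnas and Blcap were grouped apart as mixed, and all 4 did (against 63.5%). The expressed copy of the other genes may also vary between tissues, and which copy is expressed in these cells was not examined. The maternally expressed genes held 25 G9ai-only and 48 vehicle-only regions, the paternally expressed genes 6 and 10. These counts share clusters and gene lengths, and they were not tested against each other.

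Regions within 1 kb of either end of a gene were a minor part for imprinted genes and for all genes. Of those linked to imprinted genes in CD24neg, this held for 4 of 14 that were G9ai-only and 4 of 26 that were vehicle-only, in CD24low 2 of 17 and 2 of 8, and in CD24high 1 of 8 and 6 of 39. These are 28.6% and 15.4%, 11.8% and 25.0%, and 12.5% and 15.4%. Over all gene-linked regions the shares were 27.8% and 23.5%, 26.5% and 36.6%, and 32.6% and 22.3%. The regions closest inside the edge of the 1 kb flank were those of Gnas at 60 bp, Igf2r at 71 bp and Asb4 at 570 bp from the span. Closest outside it were regions 1017 bp from Dio3 (vehicle-only, CD24neg), 1171 bp from Nnat and 1566 bp from Kcnq1 (both vehicle-only, CD24high).

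Of 15 genes that keep or read imprints, 2 held a G9ai-only region and 3 a vehicle-only region in CD24neg, 2 and 2 in CD24low, and 2 and 3 in CD24high. Of all genes 10.6% and 18.9% did so in CD24neg, 15.9% and 7.44% in CD24low, and 8.01% and 25.0% in CD24high, so these counts lie near the background, and the genes are named for completeness. In CD24neg the G9ai-only ones were Dnmt3a, a DNA methyltransferase that sets imprints in germ cells, and Uhrf1, which brings the maintenance methyltransferase to newly copied DNA. The vehicle-only ones there were Setdb1, Smchd1 and Ehmt1, which encode a histone H3 lysine 9 methyltransferase, a chromosomal silencing protein and the partner enzyme of G9a. In CD24low Dnmt3a and Ctcf, the insulator protein gene, were G9ai-only, while Dnmt1 and Ehmt2, which encodes G9a itself, were vehicle-only, Ehmt2 with 2 regions. In CD24high Zfp57 and Dnmt1 were G9ai-only, and Dnmt3a, Smchd1 and the oocyte factor gene Dppa3 vehicle-only. Zfp445, Trim28, Dnmt3l, Eed and Ezh2 held none.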

How the data were processed

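Open chromatin was read from ATAC-seq of sorted mouse lung epithelial cells, 10 deposited peak lists of 18 samples. Per the submitters' processing notes the authors used FastQC, Bowtie2 and MACS2 on build mm10; the sources used here give no versions or settings, nor the read shifting and duplicate handling. Per the names in the files, peaks were called per library on nucleosome-free reads (NFR). The deposited score column is the authors' peak score, whose scale is not given; it served to rank the peaks of 1 list, as mid-rank percentiles. The sources used here do not say how the lists were subset by arm.

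Repeated lines (47 to 472 per list) were dropped, peaks merged at an overlap of at least 1 bp, and regions linked to gene spans plus 1000 bp on either side with Python 3.11.15, numpy 2.4.6 and pandas 2.3.3. On simulated data with the CD24low layout 400 of 400 planted regions were recovered. They were planted at the middle of gene spans with peaks that overlap between libraries, so this checks the code alone. Groups and replicate numbers came from the sample labels. The design text names separate mice, and nothing ties the replicate numbers of the arms to each other. Members are described by counts beside the background, with no set test; shares of peaks were tested with an exact, two-sided permutation of arm labels. Wilson intervals cover counting error only. The members and lists were chosen with earlier results of these data known. Genes were given values by rule: those with a region in CD24low or in 2 or 3 populations, and the 6 best-ranked per side in CD24neg and CD24high; others are named, with values where they held a region. Alternatives were other gene windows, the higher-scoring 50% of peaks, equal list lengths, other overlaps and leaving out each library.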

Additional observations from a re-analysis of the deposited data

Results flagged for a closer look

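For the share of listed peaks linked to imprinted genes, the sign of G9ai minus vehicle varied between populations. The difference was 0.0673 percentage points in CD24neg, -0.0689 in CD24low and -0.0154 in CD24high. Every G9ai library lay above the vehicle library in CD24neg and below the vehicle libraries in CD24low and CD24high. Replicate lists of an arm cover nearly the same places, so this agreement between replicates adds little. In CD24neg and CD24high the Wilson interval of each G9ai list held the vehicle value. In CD24low the intervals of the arms overlapped, at 0.154% to 0.385% for G9ai replicate 2 and 0.159% to 0.616% for vehicle replicate 2. The difference between populations was not tested.

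At 7 places a region was G9ai-only in 1 or 2 populations and vehicle-only in another, and this difference was not tested either. They were 41.2% of the 17 places of imprinted genes listed in several populations. Over all gene-linked places listed in several populations that share was 50%, so the imprinted genes did not stand out. On chromosome 7 these were the Ampd3 place starting at 110804225 (G9ai-only in CD24neg, vehicle-only in CD24high, and also in the window of Rnf141) and the Atp10a places starting at 58687027 (G9ai-only in CD24low, vehicle-only in CD24neg) and 58693279 (G9ai-only in CD24low, vehicle-only in CD24high). On chromosome 15 they were 4 Trappc9 places. That starting at 72746891 was G9ai-only in CD24high and vehicle-only in CD24neg. That starting at 72772692 was G9ai-only in CD24neg and CD24low and vehicle-only in CD24high. Those starting at 72809094 and 72810303 were G9ai-only in CD24neg and in CD24low, in that order, and both vehicle-only in CD24high. No group held enough libraries to look for an outlying library.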

How the results depend on the processing

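Of 110 values recomputed under other settings 69 kept within 1.5 times the reported count, or kept their direction and side of the threshold. In CD24low the p-value of the share could not fall below 0.333, so its side of the threshold was fixed in advance. The replicate block described below leaves the differences themselves unchanged, so their direction was fixed too. Counts follow as G9ai-only then vehicle-only, for CD24neg, CD24low and CD24high. Within 1 kb of a gene end, genes numbered 4 and 4, 2 and 2, and 1 and 6, regions were as many, and genes with regions in at least 2 populations numbered 1 and 3. With the higher-scoring 50% of peaks, genes numbered 6 and 9, 5 and 1, and 0 and 10, regions 6 and 14, 5 and 1, and 0 and 22, and genes in at least 2 populations 1 and 7. With equal list lengths of 2552 peaks, genes numbered 7 and 7 in CD24neg, 3 and 7 in CD24low and 3 and 6 in CD24high, against 7 and 9 regions in CD24neg, 3 G9ai-only regions in CD24low and 9 vehicle-only regions in CD24high. Genes in at least 2 populations then numbered 4 and 4. Each of these settings keeps fewer peaks by construction. With a window of 10 kb, 9 genes and 13 regions were G9ai-only in CD24high, and the difference in peak share over the 3 populations changed sign to 0.0167 (exact permutation p = 0.648); the cause was not tested.

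Leaving out 1 library at a time, that difference ran from -0.0133 to 0.00201, with 0.00201 reached without CD24neg G9ai replicate 3, and the CD24low difference from -0.0692 to -0.0685. G9ai-only regions ran from 14 to 16 in CD24neg and from 17 to 18 in CD24low, and the other counts were unchanged by leaving out a library. Replicate lists of an arm cover nearly the same places, so leaving out 1 could hardly change a count. Arm labels were also exchanged only within the same replicate number (a replicate block). The exact permutation p was then 0.5 in CD24low for -0.0689, the smallest value this block allows there. Over the 3 populations the exact permutation p was 0.688 for -0.00566. The replicate numbers are not tied to mice, so this block is not a pairing. The overlap of 50% and the rule of a peak in at least 1 library were run for counts alone. Depth is unknown, so the limit it sets on calling a region could not be stated.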
